A study of Mus musculus with 4 samples.

Results

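Transcripts of 10 genes that set how much bone morphogenetic protein (BMP) reaches its receptors were followed in C3H10T1/2 cells, an established mouse mesenchymal stem cell line. The genes were the ligand genes Bmp2, Bmp4 and Bmp6, the ligand binding and antagonist genes Grem1, Nog, Chrd, Twsg1, Bmper and Crim1, and the protease gene Bmp1. They were taken by name, as every probe set that the platform annotation pairs with 1 of these symbols alone, which gave 16 of the 45037 probe sets tested and 10 of 18193 named genes. The study had 2 groups. Control cells were left untreated, with no vehicle named by the labels, and BMP3 cells received recombinant human BMP3 at 100 ng/ml over 6 hours, with 2 Affymetrix 3' expression arrays each. Both groups were of the same line under standard culture, at 1 dose and 1 time. The labels call the arrays biological replicates without saying that they came from separate cultures, so a p-value measures only the spread between these samples.

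BMP ligands are secreted dimers that bind paired type I and type II receptor kinases, which phosphorylate the receptor SMADs of the BMP branch. Antagonists such as noggin, gremlin and chordin bind the ligand outside the cell and keep it from its receptors, and tolloid proteases cut chordin to set the ligand free again. C3H10T1/2 cells can be turned toward fat, cartilage or bone fates by added BMP2 or BMP4, and BMP3 is a family member known to oppose such ligands.

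The results turn on Bmp4, Grem1, Chrd, Bmper and Crim1, so the DNA just before their start sites is shown first. The set of RefSeq promoters used here (GRCm38.p6) held 7 of the 10 genes and lacked Bmp1, Bmp2 and Nog. For each of the 7, the 250 bases before the start were read. They lie at chr14:46390670-46390919 (minus strand) for Bmp4, chr2:113758649-113758898 (minus strand) for Grem1, chr16:20732877-20733126 (plus strand) for Chrd, chr9:23222826-23223075 (plus strand) for Bmper and chr17:78199998-78200247 (plus strand) for Crim1. Each is written 5′ to 3′ on the strand of its gene. Capitals mark AGAC, the core recognised by SMAD proteins, and the GC-rich SMAD motifs GGCGCC and GGAGCC, each on either strand and allowed to overlap.
Bmp4: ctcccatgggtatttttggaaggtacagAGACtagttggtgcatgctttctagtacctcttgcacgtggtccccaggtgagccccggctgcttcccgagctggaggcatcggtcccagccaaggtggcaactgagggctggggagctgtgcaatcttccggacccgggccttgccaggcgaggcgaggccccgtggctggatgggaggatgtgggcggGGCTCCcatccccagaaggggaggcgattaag
Grem1: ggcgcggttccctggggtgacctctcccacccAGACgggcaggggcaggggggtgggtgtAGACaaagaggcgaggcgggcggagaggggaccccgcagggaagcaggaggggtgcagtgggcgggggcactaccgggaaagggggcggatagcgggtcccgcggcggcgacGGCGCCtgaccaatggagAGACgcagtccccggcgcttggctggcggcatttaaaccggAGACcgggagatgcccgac
Chrd: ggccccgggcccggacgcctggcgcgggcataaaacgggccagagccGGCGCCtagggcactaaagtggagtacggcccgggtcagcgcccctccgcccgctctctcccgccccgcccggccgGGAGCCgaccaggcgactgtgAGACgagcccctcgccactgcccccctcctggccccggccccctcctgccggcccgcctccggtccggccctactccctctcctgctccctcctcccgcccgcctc
Bmper: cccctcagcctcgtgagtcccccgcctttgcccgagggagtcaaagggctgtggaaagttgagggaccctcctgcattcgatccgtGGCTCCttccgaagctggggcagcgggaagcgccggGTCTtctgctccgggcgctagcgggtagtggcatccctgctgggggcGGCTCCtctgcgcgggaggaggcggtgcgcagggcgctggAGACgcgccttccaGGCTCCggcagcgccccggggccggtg
Crim1: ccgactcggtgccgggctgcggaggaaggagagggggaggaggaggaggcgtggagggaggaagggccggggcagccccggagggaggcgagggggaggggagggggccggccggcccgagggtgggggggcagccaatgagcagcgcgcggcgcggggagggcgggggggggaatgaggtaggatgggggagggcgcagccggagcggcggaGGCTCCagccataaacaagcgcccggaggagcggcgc

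GGCGCC stood in 9.59% of all 32851 promoter windows of this length, GGAGCC in 26.0% and AGAC in 82.9%. The Grem1 window held GGCGCC 78 bases before the start together with 4 AGAC cores. The Chrd window held it 203 bases before the start, with GGAGCC at 127. The Bmper window held 3 GGAGCC matches, at 164, 81 and 27 bases, and the Bmp4 and Crim1 windows 1 each, at 32 and 37. Of the windows not printed, Twsg1 had 2 GGAGCC matches and Bmp6 had 3 AGAC cores with neither GC-rich motif. All 7 windows were rich in G and C, from 63.2% in Bmp4 to 78.0% in Chrd, against a median of 52.4% over all windows. These are matches of letters only, and SMAD binding was not measured.

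The probe sets fell into a bright and a dim set. Values are deposited log2 intensities, and the medians of the 4 arrays ran from 3.31 to 3.40. Of the 16 probe sets, 9 averaged a log2 value of 6 or more, called bright here, with single values from 7.52 to 14.2, and covered 7 genes: Bmp4, Grem1, Chrd, Twsg1, Bmper, Crim1 and Bmp1. The other 7 probe sets read between 1.85 and 3.30 on every array, below all array medians, and no difference is given for them. Bmp2, Bmp6 and Nog, which encodes noggin, had only such dim probe sets. Bmp2 read 3.04 and 3.17 in control against 3.10 and 3.03 with BMP3, Bmp6 1.87 and 1.88 against 1.88 and 1.85, and Nog 1.85 and 1.88 against 1.89 and 1.85. For all 3 genes the groups overlapped. For genes with a bright probe set, 3 of 4 probe sets for Twsg1 and 1 of 3 for Bmp1 were dim, so a dim probe set does not by itself show a low transcript level.

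**Figure D1:**
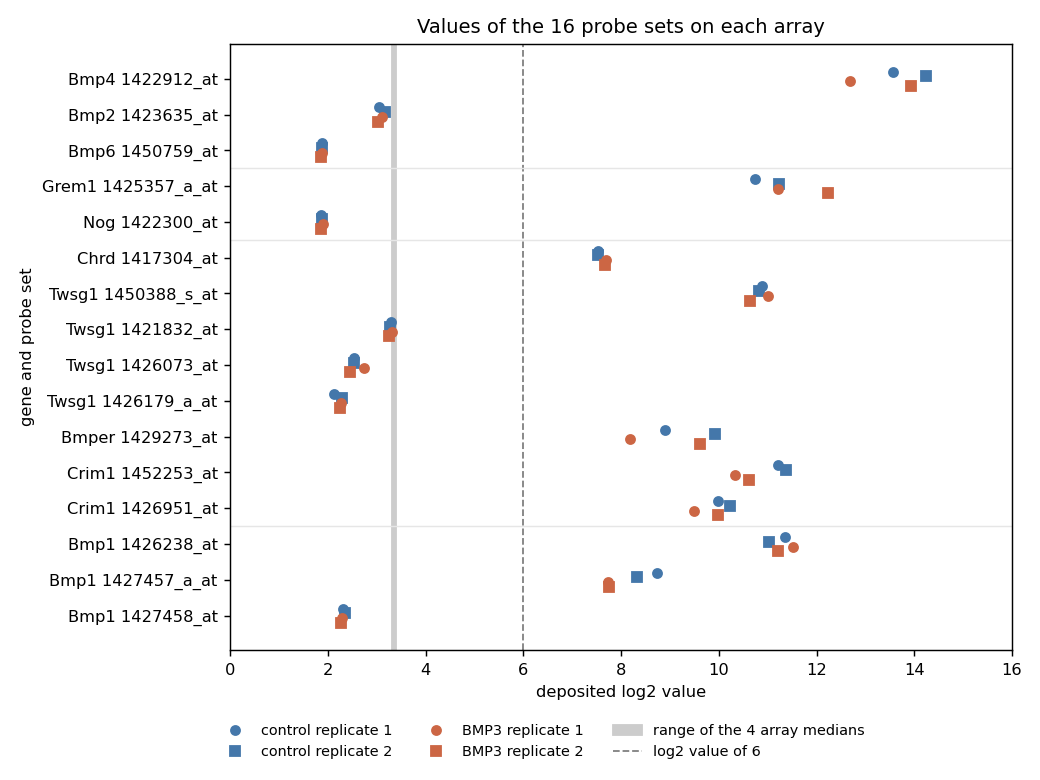
Deposited log2 values (x axis) of the 16 probe sets (y axis, ligands, then binding proteins, then the protease Bmp1) on 2 control (blue) and 2 BMP3 (orange) arrays, circles for replicate 1 and squares for replicate 2. The grey band is the range of the array medians, 3.31 to 3.40: 7 probe sets lie below it and 9 lie between 7.52 and 14.2.

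None of the 16 probe sets passed limma's adjusted p of 0.05, and 0% of all 45037 did. At an unadjusted p under 0.05, limma counted 3 of the 16, against 8.39% of all probe sets. Over the 9 bright probe sets the count was also 3, against 19.0% of the 17152 probe sets at that brightness, and 2 of the 9 had a fold of at least 1.5 as well, against 5.77%. The 3 probe sets counted at an unadjusted p under 0.05 belonged to Crim1, Bmp1 and Chrd. The BMP3 arrays lay wholly above the control arrays for 1 of the 9 (23.9% of bright probe sets) and wholly below for 3 (24.7%), while 5 overlapped. Of the 9 log2 differences, 3 were above 0 and 6 below, with a median of -0.365, against a median of -0.0009 over all bright probe sets. With 2 arrays against 2 an exact two-sided permutation test cannot go below 0.333 for any single probe set. In such bulk RNA, fewer cells expressing a gene and less RNA per cell cannot be told apart.

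**Figure D2:**
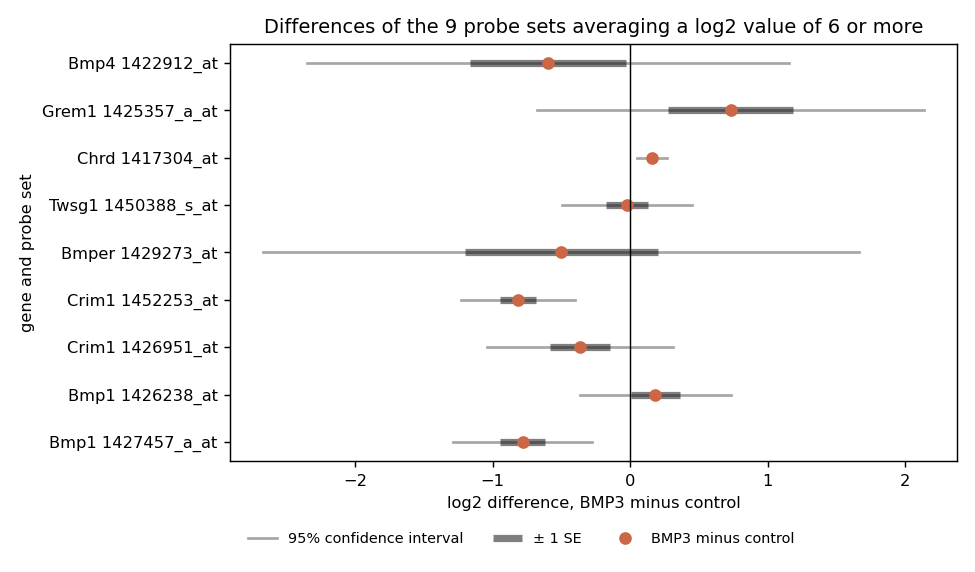
Log2 differences, BMP3 minus control (x axis), of the 9 bright probe sets (y axis), with 1 standard error (thick bars) and limma's 95% confidence interval (thin bars). The intervals of Crim1 1452253_at, Bmp1 1427457_a_at and Chrd lie to 1 side of 0, and those of Bmp4, Grem1 and Bmper are the widest of the 9.

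Bmp4 was the 1 ligand of this group with a bright probe set. It read 13.57 and 14.25 in control against 12.68 and 13.94 with BMP3. The groups overlapped, with BMP3 replicate 2 above control replicate 1. The log2 difference was -0.60 ± 0.57 (BMP3 minus control ± SE, limma adjusted p = 0.899), with a 95% interval from -2.35 to 1.15. The gap between the BMP3 arrays alone was 1.26, which was larger than 97.9% of such gaps among bright probe sets. Without BMP3 replicate 1 the difference was 0.03. Within each replicate number the BMP3 array was the lower one, though the labels do not say that the number pairs samples. With a block for that number the unadjusted limma p was 0.0459 (adjusted p = 0.322), against 0.364 without it.

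Among the antagonists that bind ligand directly, Grem1, which encodes gremlin 1 of the DAN family, read 10.74 and 11.24 in control against 11.20 and 12.23 with BMP3. BMP3 replicate 2 was the highest, and BMP3 replicate 1 lay just below control replicate 2. The difference was 0.73 ± 0.46 (limma adjusted p = 0.860, interval -0.68 to 2.14). It stayed above 0 with each array left out, but ranged from 0.215 without BMP3 replicate 2 to 1.25 without BMP3 replicate 1. Within each replicate number the BMP3 array was the higher one. With a block for that number the unadjusted limma p was 0.0226 (adjusted p = 0.237), against 0.203 without it.

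Chrd encodes chordin, the antagonist cut by tolloid proteases. It read 7.52 and 7.54 in control against 7.69 and 7.67 with BMP3. Both BMP3 arrays lay above both control arrays, and the arrays of a group differed by 0.018 in control and 0.022 with BMP3. The difference of 0.16 ± 0.04 corresponded to a 1.11-fold higher level (limma adjusted p = 0.441, interval 0.05 to 0.26). It was the smallest difference of the 3 with an unadjusted p under 0.05, and its size was exceeded by 60.3% of bright probe sets. Its unadjusted limma p was 0.0190, but 0.252 with only bright probe sets fitted and 0.204 with the dimmer probe sets left out by rank. With an eBayes trend it was 0.372, and with a block for the replicate number 0.0789. It was lower under 3 further normalizations, from 0.00779 to 0.00865, and with an offset of 16, at 0.00316. An ordinary linear model gave an unadjusted p of 0.00854.

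Twsg1 encodes twisted gastrulation, which binds BMP together with chordin. Its bright probe set, 1450388_s_at, read 10.87 and 10.82 in control against 11.01 and 10.64 with BMP3. The control arrays lay between the BMP3 arrays, and the difference was -0.02 ± 0.15 (limma adjusted p = 0.992). The 95% interval ran from -0.49 to 0.45, so a change within that range was not resolved. A dim probe set, 1421832_at, carries the same sequence accession in the annotation and read 3.25 to 3.30.

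Bmper encodes the BMP binding endothelial regulator, a relative of Drosophila crossveinless 2 that can promote or restrain BMP signalling. It read 8.89 and 9.92 in control against 8.19 and 9.62 with BMP3. In each group replicate 2 was more than 1 log2 unit above replicate 1, and the groups overlapped. Those gaps, 1.03 and 1.43, exceeded 98.4% and 98.6% of the gaps of bright probe sets in the same arrays. The difference between groups was -0.50 ± 0.70 (limma adjusted p = 0.933, interval -2.67 to 1.66). It was 0.215 without BMP3 replicate 1 and 0.02 without control replicate 2. Within each replicate number the BMP3 array was the lower one. With a block for that number the unadjusted limma p was 0.0325 (adjusted p = 0.275), against 0.524 without it.

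Crim1 encodes a membrane-anchored protein with chordin-like cysteine-rich repeats that binds BMPs in the cells producing them. Its brighter probe set, 1452253_at, read 11.22 and 11.37 in control against 10.33 and 10.62 with BMP3. Both BMP3 arrays lay below both control arrays. The difference was -0.82 ± 0.13, a 1.76-fold lower level with a 95% interval from -1.23 to -0.40 (limma adjusted p = 0.344). The second probe set, 1426951_at, carries the same accession and read 9.98 and 10.22 against 9.49 and 9.98. Control replicate 1 and BMP3 replicate 2 both rounded to 9.98, so the groups touched without crossing, and the difference was -0.37 ± 0.22 (limma adjusted p = 0.855). Both probe sets were lower in BMP3 arrays, by unequal amounts. The value of 1452253_at minus that of 1426951_at was 1.24 and 1.15 in control against 0.84 and 0.64 with BMP3 (exact two-sided permutation p = 0.333, the smallest possible).

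Bmp1 is named as a BMP but encodes the tolloid-type metalloprotease that cuts chordin and the C-propeptides of fibrillar procollagens. Its probe sets disagreed. The brighter one, 1426238_at, read 11.35 and 11.03 in control against 11.52 and 11.22 with BMP3, with overlapping groups and a difference of 0.18 ± 0.18 (limma adjusted p = 0.899). The other, 1427457_a_at, read 8.72 and 8.32 in control against 7.73 and 7.75 with BMP3, with no overlap. Its difference was -0.78 ± 0.16, a 1.72-fold lower level with a 95% interval from -1.29 to -0.28 (limma adjusted p = 0.410). The unadjusted p was 0.0153 with limma and 0.0606 under an ordinary linear model. The value of 1426238_at minus that of 1427457_a_at was 2.62 and 2.70 in control against 3.79 and 3.46 with BMP3. That is a mean shift of 0.96 between the groups, with no overlap (exact two-sided permutation p = 0.333, the smallest possible). The Bmp1 gene yields several spliced forms, and which of them each probe set reads was not tested. The remaining probe set, 1427458_at, carries the accession of 1427457_a_at and read 2.27 to 2.34.

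**Figure D3:**
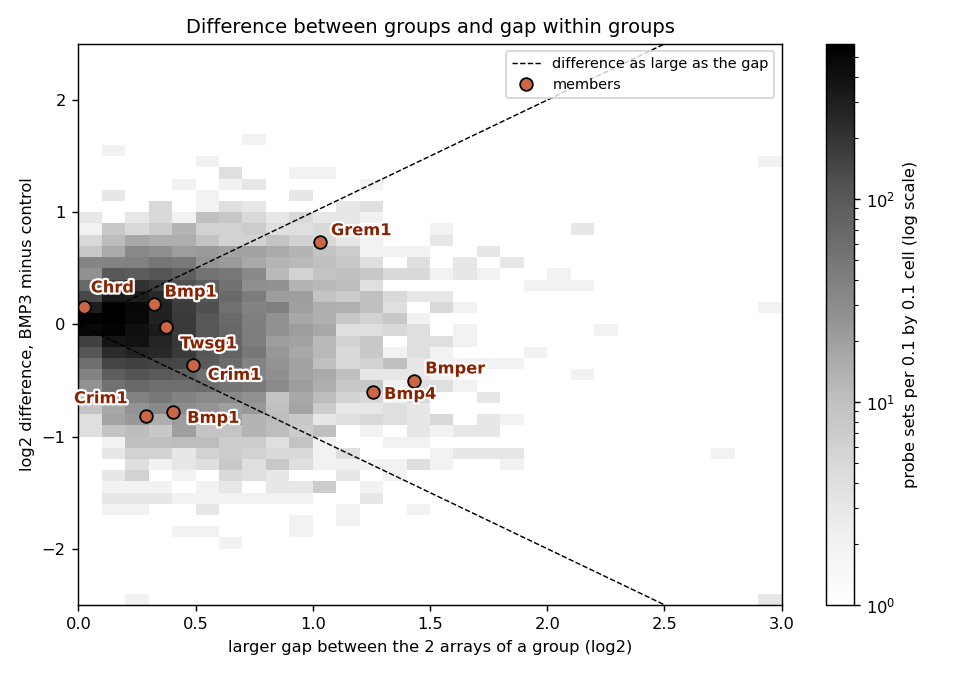
Log2 difference between groups (y axis) against the larger of the gaps between the 2 arrays of a group (x axis). Grey cells count the 17152 bright probe sets on a log scale, orange points are the 9 bright member probe sets, and on the dashed lines the difference equals the gap. Values beyond the axes are counted in the edge cells. Bmp4, Bmper and Grem1 lie at gaps over 1, while Crim1 1452253_at, Bmp1 1427457_a_at and Chrd lie outside the lines.

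For 6 of the 9 bright probe sets the larger gap inside a group exceeded the difference between groups, as it did for 66.0% of bright probe sets. Bmp4, Bmper and Grem1 had the widest gaps, and in all of these the replicate 2 array was the higher one in both groups. For Crim1 1452253_at, Bmp1 1427457_a_at and Chrd the difference was larger than either gap. With each array left out in turn their differences ran from -0.96 to -0.67 for Crim1, from -0.98 to -0.58 for Bmp1 and from 0.145 to 0.167 for Chrd.

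The rest of the pathway was read from lists of named genes, at the brightest probe set of each gene. The shares beside these counts are over all bright probe sets, of which a gene can have several. The lists were chosen with earlier results of these data known, so their counts are descriptions and not tests. Of 18 other BMP and GDF ligand genes, 12 were measured and only Gdf11 was bright, at 6.78 and 6.83 in control against 6.84 and 6.79 with BMP3. Bmp3 itself, with Gdf1, Gdf6, Gdf7, Gdf15 and Mstn, was not analysed here. With Bmp2 and Bmp6 dim as well, Bmp4 and Gdf11 were the ligand genes of these names with a bright probe set.

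Of 16 measured genes for other BMP binding proteins and inhibitors, 6 were bright, with 3 differences above 0, 3 below and a median of -0.01. Of the 6 bright genes, 1 had an unadjusted p under 0.05, against 19.0% of all bright probe sets. That gene was Rgma, which encodes a membrane-anchored BMP co-receptor. It read 8.18 and 8.48 in control against 9.03 and 8.85 with BMP3, a difference of 0.61 ± 0.14 (limma adjusted p = 0.445). The other 5, among them Fst and Nbl1, ran from -0.31 to 0.20.

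Tolloid proteases and secreted modulators had 4 bright genes of 7 measured, all with differences below 0 and a median of -0.30. Over all bright probe sets, 49.8% had a difference above 0. An unadjusted p under 0.05 was found for 2 of the 4 genes, against 19.0% of all bright probe sets. The serine protease gene Htra1 had -0.27 ± 0.04 at its brightest probe set (limma adjusted p = 0.331) and -0.47 ± 0.13 at the other. Pcolce, which encodes the enhancer of procollagen cutting by Bmp1, had -0.13 ± 0.03 at its brightest probe set (limma adjusted p = 0.484). The other Pcolce probe set had -0.17 ± 0.08. Olfml3 had the lowest difference of the 4, -0.50 ± 0.19 (limma adjusted p = 0.668). It read 10.45 and 10.84 in control against 10.02 and 10.28 with BMP3. Tll1, a tolloid-like protease gene, read 6.58 and 6.71 in control against 5.64 and 6.98 with BMP3, which overlapped. Sfrp2, a secreted Wnt antagonist of this list, averaged under 6 over the 4 arrays and was singled out after its values were seen. It read 7.52 and 6.61 in control arrays and 2.28 and 2.24, below the array medians, in BMP3 arrays.

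Among genes for the enzymes that cut BMP proproteins and for matrix proteins that hold BMPs, 7 of 9 measured were bright, with a median of 0.15. An unadjusted p under 0.05 was found for 2 above and 2 below 0, 4 of the 7, against 19.0% of all bright probe sets. Pcsk6, the proprotein convertase PACE4, read 8.41 and 8.78 in control against 7.21 and 7.42 with BMP3, a difference of -1.28 ± 0.17 (limma adjusted p = 0.301). Its relatives Furin and Pcsk7 had 0.22 ± 0.12 and 0.12 ± 0.06. Fbn2, which encodes the microfibril protein fibrillin 2, had -1.22 ± 0.29 (limma adjusted p = 0.457). Col4a1, a basement membrane collagen chain that can bind BMP4, had 0.55 ± 0.04 at its brightest probe set and 0.19 ± 0.08 at the other, and Sdc3, which encodes a syndecan, had 0.53 ± 0.08 (limma adjusted p = 0.213 and 0.318 for the brightest).

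Of the receptor, SMAD and Id genes, 13 of 17 were bright, with 12 differences below 0, 1 above and a median of -0.21, where 49.8% of all bright probe sets had a difference above 0. The receptor gene Bmpr1a had -0.03 ± 0.04 at its brightest probe set, and its other bright probe sets had -0.14, -0.24 and -0.32. Bmpr2 had -0.04 ± 0.11 and -0.13 ± 0.23 at its 2 bright probe sets. Of the 13 bright genes, 2 had an unadjusted p under 0.05, against 19.0% of all bright probe sets. These were Id2 and Id3, which are direct targets of the BMP branch. Id2 read 12.81 and 12.57 in control against 11.03 and 10.98 with BMP3, and Id3 12.00 and 11.65 against 11.03 and 11.00. Id1 read 11.39 and 11.05 against 10.32 and 10.82. None of the pathway genes passed limma's adjusted p of 0.05.

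**Figure D4:**
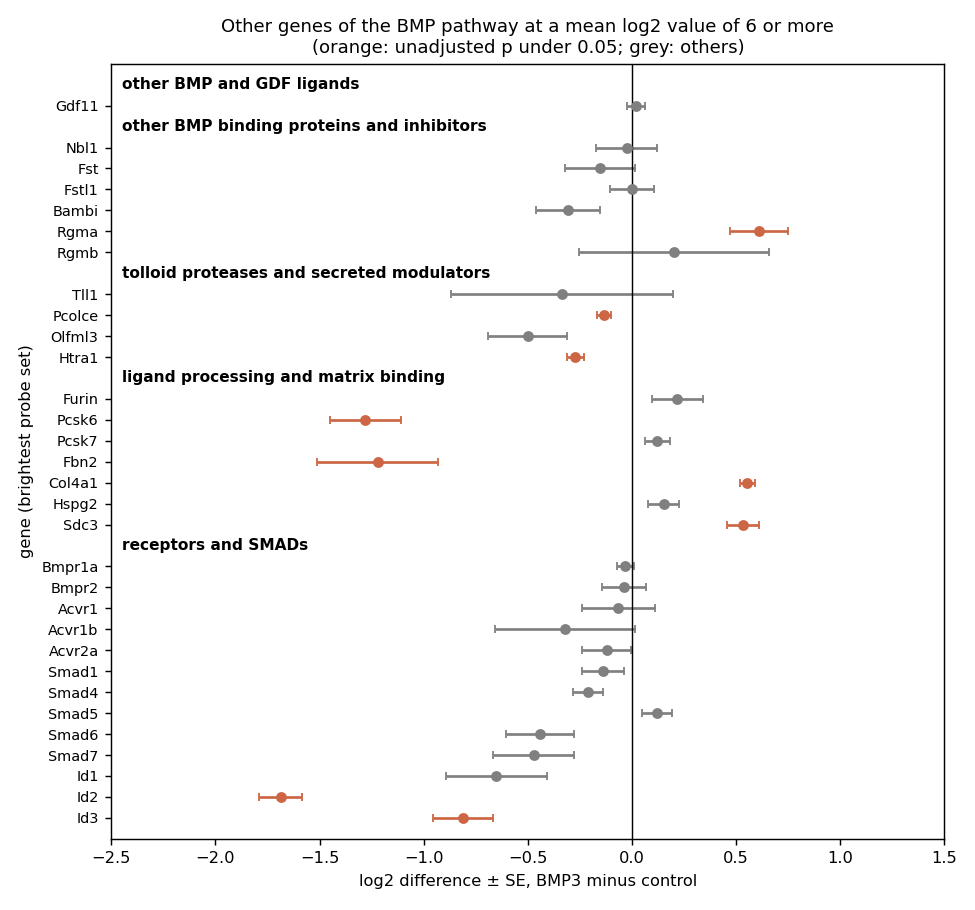
Log2 differences, BMP3 minus control ± SE (x axis), of the bright genes in 5 lists of the pathway (y axis). Orange marks an unadjusted limma p under 0.05. Pcsk6, Fbn2, Id2 and Id3 lie furthest below 0, and Rgma, Col4a1 and Sdc3 furthest above.

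The labelled cell type was checked with marker genes. Of 12 measured mesenchymal markers, 11 were bright, 4 with differences above 0 and 7 below, and Nt5e was dim. At the brightest probe set of each, 2 of the 11 had an unadjusted p under 0.05, against 19.0% of all bright probe sets. These were Thy1 (0.73 ± 0.10) and Cd44 (0.64 ± 0.19). Eng had 0.47 ± 0.15 and Col1a2 0.12 ± 0.04, while Pdgfra had -0.73 ± 0.52 and Pdgfrb -0.30 ± 0.20. Col1a1, Col3a1, Vim, Twist1 and Prrx1 ran from -0.10 to -0.02. The other bright Prrx1 probe sets had -0.44, -0.01, 0.15 and -0.61. Other bright probe sets also differed in sign from the brightest for Pdgfrb (0.32 ± 0.40) and Col1a2 (-0.04 and -0.16). Those of Vim had -0.10 and 0.11. None of 5 blood, 4 endothelial or 3 neural markers was bright on average, and 1 of 4 epithelial markers was, Epcam. The Epcam probe sets disagreed. The brightest read 9.37 and 9.56 in control against 9.63 and 9.49 with BMP3. The other read 2.30 and 2.36 against 2.34 and 2.31, below all array medians. The bright call for Epcam thus rests on 1 probe set, and which of them reads the transcript was not tested. The mean log2 level of the mesenchymal list was 12.52 and 12.41 in control against 12.60 and 12.42 with BMP3. The log2 of the summed linear values of the neural list was 6.01 and 6.23 in control against 6.33 and 6.93 with BMP3. Some array controls moved with the groups: 18S ribosomal RNA read 11.41 and 10.50 in control against 8.99 and 9.90 with BMP3. Each of the 4 poly-A spike-ins read lower on both BMP3 arrays than on both control arrays. For example, Dap read 10.18 and 9.66 in control against 8.98 and 8.79 with BMP3, and Lys 7.05 and 6.17 against 5.71 and 6.10. The Gapdh 3' minus 5' value was -0.55 and -0.56 in control against -0.09 and -0.44 with BMP3. For beta-actin it was 0.48 and 0.39 against 0.73 and 0.38, which overlapped. The part of these shifts in the differences above was not tested.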

How the data were processed

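Biotin-labelled RNA of 4 samples was hybridised to Affymetrix 3' arrays, per the labels' protocols. The authors deposited 1 value per probe set and array, read here as log2 from its range. Per the submitters' processing notes, the software was Partek. How background was corrected, arrays normalized and probes summarised is not given in the sources, and another log base would change each fold. Groups came from the sample titles.

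The values were used as deposited, after 64 array control probe sets were left out. Of 45037 probe sets, 34945 carried 1 symbol, 932 several and 9160 none. Bright means a mean log2 value of at least 6 over the 4 arrays. Differences were fitted over all probe sets with limma 3.58.1 in R 4.3.3 (lmFit, eBayes, 2 residual and 1.18 prior degrees of freedom), two-sided, and p-values were adjusted (Benjamini-Hochberg) over all probe sets. The fit was tested on simulated data. The members and lists were chosen with earlier results of these data known. Every member was named, with up to 4 bright genes of a pathway list at an unadjusted p under 0.05, otherwise its brightest gene, and Id1, Id2 and Id3. Others were chosen after their values were seen. The alternatives tried were leaving out each array, a block for the replicate number, 3 further normalizations (quantile, median, cyclic loess), 2 filters on dim probe sets, an offset of 16, an eBayes trend, an ordinary linear model, a stricter p of 0.01 and means over a gene's probe sets. The number of arrays limits the precision.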

Additional observations from a re-analysis of the deposited data

How the results depend on the processing

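No alternative gave a probe set past an adjusted p of 0.05. The 9 bright member probe sets kept their direction in 111 of 117 values. The exceptions were Bmp4 (-1.23 to 0.0287 with 1 array left out), Bmper (-1.22 to 0.215) and Twsg1 (-0.21 to 0.17, and 0.0184 under median centring). At the gene level, the mean of all probe sets gave -0.215 for Bmp1 and 0.0189 for Twsg1, against 0.18 and -0.02 at the brightest, and the mean of bright probe sets gave -0.30 for Bmp1. The labels do not say that a replicate number marks a shared batch. Deviations from the group means correlated at 0.596 between same-numbered arrays over bright probe sets, a hint from the data and not the design. With the replicate block, 6701 probe sets had an unadjusted p under 0.05, against 3779, and so did 6 of the 9 bright member probe sets against 3 (32.7% against 19.0% of all bright probe sets), or 4 against 2 with the fold of 1.5 (9.71% against 5.77%). The 6 were Bmp4, Grem1, Bmper, Bmp1 1427457_a_at and both of Crim1, and Chrd was not among them. The count over all probe sets ran from 2908 to 5681 (without BMP3 replicate 1) with 1 array left out, and was 2216 with only bright probe sets fitted, 2299 under the ordinary linear model and 1201 at a p under 0.01. The bright member probe sets counted 1 at a p under 0.01, with or without the fold. The share of all bright probe sets at that p was not counted. At a p under 0.05 with the fold, the ordinary linear model counted 1 bright member probe set, against 2.72% of all bright probe sets. A fit with 1 array left out assumes that the lone array of a group varies like the other group. The causes were not tested. Differences of dim member probe sets are not given under any setting.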
